A study of Homo sapiens with 24 samples.

Results

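The BCL2 family genes examined here were chosen with earlier results of these data known, and were taken by symbol from the deposited table. They are the anti-apoptotic genes BCL2, BCL2L1 and MCL1, the BH3-only genes BCL2L11, BMF, PMAIP1, BID and BIK, the effector gene BAK1 and the mitophagy receptor gene BNIP3L. All 10 were found among the 18889 genes of the table, and all 10 passed the filter on low values in every comparison. The study cultured 3 estrogen receptor-positive (ER+) human breast carcinoma lines, which are HCC1500, ZR-75-30 and the line MDA-MB-175, and profiled RNA by RNA-seq after 48 h in 5 mM glucose (low glucose, LG) or 25 mM glucose (high glucose, HG), with 4 cultures in each of the 6 groups. Cells of both groups were first conditioned in low glucose, and the treatment medium held no serum. Each line is an established line, so that a difference between lines belongs to these lines and their cultures.

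Proteins of the BCL2 family control whether the outer mitochondrial membrane is opened during apoptosis. BCL2, BCL-XL (the main product of BCL2L1) and MCL1 hold the membrane closed by binding the effectors BAK and BAX and the BH3-only proteins. BH3-only proteins such as BIM (BCL2L11), BMF, NOXA (PMAIP1), BID and BIK are induced or activated by stress and either occupy the anti-apoptotic proteins or act on the effectors, and NOXA binds MCL1 in particular. In ER+ breast cells BCL2 is a known estrogen-induced gene.

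Values are normalised read counts as deposited, and within a sample each value is a read number scaled by the same factor. Libraries held between 9140024 and 17998819 recovered reads. A detection floor of 3 reads equals values of 0.95 to 2.29, depending on the library. All 8 epithelial and luminal markers examined were present in every line, but CDH1 was far lower in ZR-75-30 than in the other lines. It was 49 to 62 there, against 5692.2 to 6511.8 in MDA-MB-175 and 5446.6 to 8263.5 in HCC1500. The sum of these markers in ZR-75-30 was lower at HG (34942.2 to 40806.1) than at LG (49036.1 to 53679). In HCC1500 the sum was 32482.2 to 34196.3 at LG and 30777.8 to 51032.1 at HG. Of 3 leukocyte markers only CD14 was in the table, and in HCC1500 it was 0.4 to 3 at LG and 8.3 to 26.7 at HG. The summed fibroblast markers (3 of 3 in the table) were 227.3 to 256.3 at LG and 169.3 to 222.8 at HG in that line. Endothelial markers (2 of 3 in the table) summed to at most 77.7 in any culture. The part of these markers in the results was not tested. TXNIP, a gene known to be induced by glucose, was higher at HG in each line without overlap, with means going from 1939 to 2540 in MDA-MB-175, from 615.4 to 1045 in ZR-75-30, and from 2556 to 5189 in HCC1500. The HG replicate 3 of HCC1500 stood apart: its mean Pearson correlation with its group was 0.944, against 0.990 or more for every other culture, and 23.91% of genes in it deviated from the rest of its group by over 1 on the log2 scale, against at most 1.74% elsewhere. Its deviation fell with exon length (Spearman rho = -0.54 across genes). HCC1500 glucose results are therefore given with and without it. LG and HG cultures of HCC1500 also did not overlap in depth, at 13190982 to 17998819 and 9423472 to 12140912 reads, and the part of depth in the HCC1500 results was not tested. In bulk RNA, fewer cells expressing a gene and less RNA per cell cannot be told apart.

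The plot of all values by culture shows that differences between lines reached 495-fold for BCL2, while glucose differences were mostly below 3-fold.

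**Figure D1:**
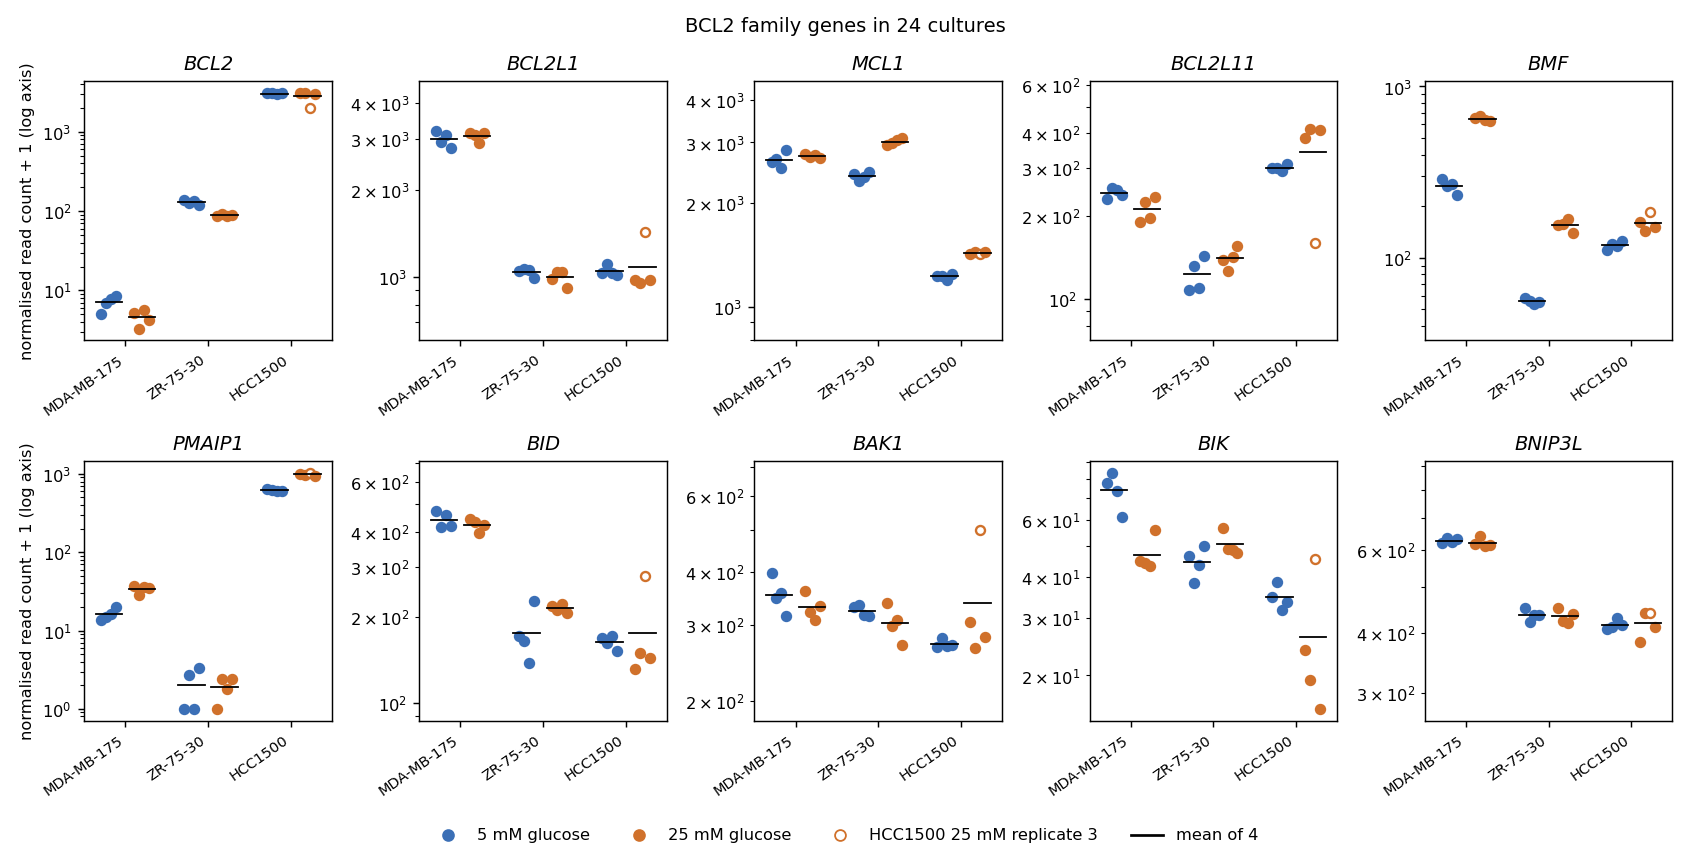
Normalised read counts (plus 1, log axis) of the 10 genes in each culture, by line, at 5 mM (blue) and 25 mM (orange) glucose, with the mean of 4 as a line; the open circle is HCC1500 HG replicate 3. BMF lies higher at 25 mM in every line, and BCL2 rises from single digits in MDA-MB-175 to a mean of 3035 in HCC1500.

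The first question was how the anti-apoptotic genes differed between the lines at low glucose. BCL2 (GRCh37 chr18:60790579-60987361, minus strand) was nearly silent in MDA-MB-175, intermediate in ZR-75-30 and high in HCC1500. Its values in the 4 LG cultures were 4.0, 6.0, 6.8 and 7.6 in MDA-MB-175 and 137.4, 125.1, 134.4 and 119.9 in ZR-75-30. HCC1500 had 3047.6, 3042.5, 2997.6 and 3050.9. No 2 lines overlapped. The mean in HCC1500 was 495-fold that in MDA-MB-175 and 23.5-fold that in ZR-75-30 (limma, log2 difference -8.76 and -4.55, SE 0.12 for each, adjusted p = 5.05e-17 and 4.75e-14).

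BCL2L1 (chr20:30252255-30311792, minus strand) had another order. At LG its values were 3200.7, 2940.7, 3110.0 and 2785.5 in MDA-MB-175 and 1049.8, 1068.0, 1058.4 and 987.9 in ZR-75-30. HCC1500 had 1033.0, 1109.2, 1026.9 and 1018.4. MDA-MB-175 lay above both other lines without overlap, at 2.89-fold ZR-75-30 and 2.87-fold HCC1500 (adjusted p = 1.85e-13 and 1.31e-13, limma). ZR-75-30 and HCC1500 did not differ beyond their spread (log2 difference -0.01, SE 0.04, adjusted p = 0.886), but the scaling set both call and direction: ZR-75-30 was higher by 0.14 with median-of-ratios scaling (adjusted p = 0.00484) and lower, at -0.36, with per-million scaling (adjusted p = 2.61e-07). BCL2L1 shares 1735 exon bases with the antisense RNA gene ABALON, and the strandedness of the counting is not given in the sources used here, so reads of the 2 genes could not be separated.

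MCL1 (chr1:150533371-150552214, minus strand), whose protein is short-lived, was highest in MDA-MB-175 with a mean of 2671 ± 136 (SD, n = 4), followed by ZR-75-30 at 2395 ± 61.8 and HCC1500 at 1223 ± 20.6. All 3 differences passed the test, the smallest being 0.16 on the log2 scale (SE 0.04, adjusted p = 0.0011, limma) between MDA-MB-175 and ZR-75-30. That smallest difference was 0.06 and not called with median-of-ratios scaling, edgeR or DESeq2 (adjusted p = 0.219, 0.189 and 0.205). To set levels of different genes side by side, values were divided by the kilobases of all annotated exons of the gene. These lengths can exceed those of the transcripts present, so the order of genes within a line is approximate. Per exon kilobase, BCL2L1 at LG was the highest of the anti-apoptotic genes in MDA-MB-175 at 717 ± 43.8, before MCL1 at 429 ± 21.8 and BCL2 at 0.486 ± 0.123. In ZR-75-30 MCL1 led at 385 ± 9.94, with BCL2L1 at 248 ± 8.62 and BCL2 at 10.2 ± 0.645. In HCC1500 the levels per kilobase were close to each other, at 249 ± 10 for BCL2L1, 241 ± 1.98 for BCL2 and 197 ± 3.31 for MCL1.

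**Figure D2:**
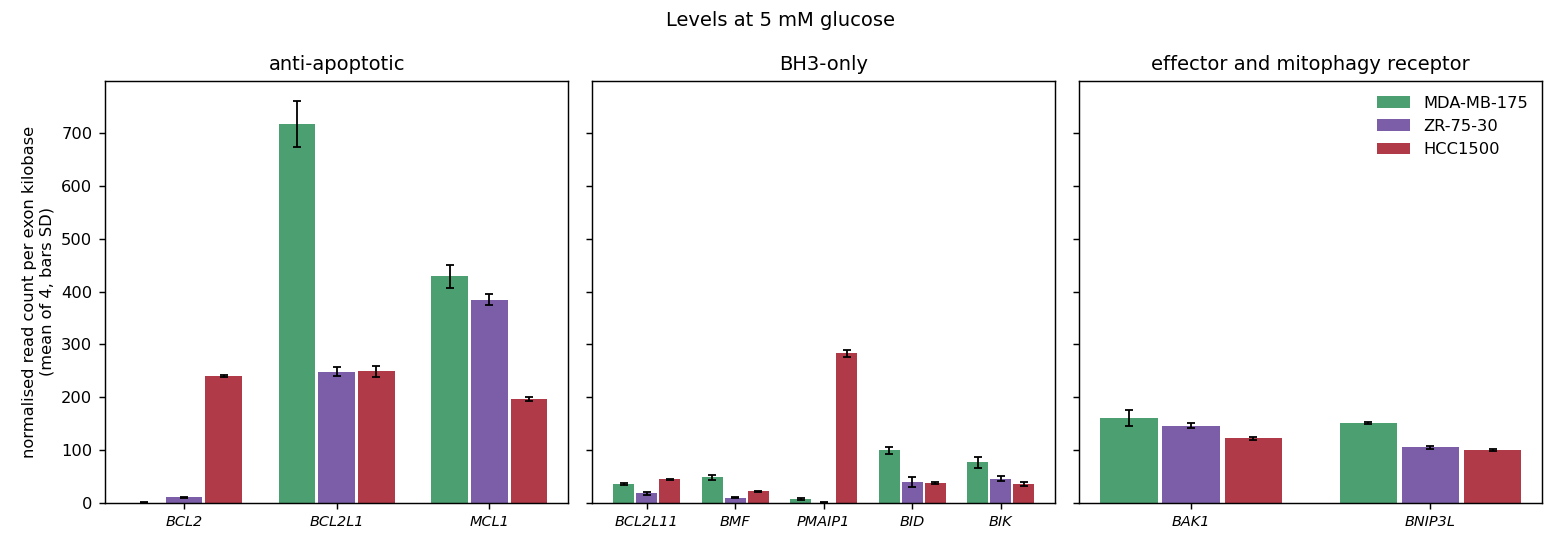
Mean level per exon kilobase at 5 mM glucose (bars, linear axis from 0; error bars SD of 4 cultures) for the 10 genes in the 3 lines. BCL2 is visible mainly in HCC1500 (241 per kilobase), BCL2L1 is highest in MDA-MB-175 (717) and PMAIP1 in HCC1500 (283).

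Among the BH3-only genes the largest difference between lines was that of PMAIP1 (chr18:57567228-57571537, plus strand), which encodes NOXA. Its LG values were 12.8, 14.1, 15.4 and 18.8 in MDA-MB-175 and 0.0, 1.7, 0.0 and 2.3 in ZR-75-30. HCC1500 had 638.9, 619.1, 610.1 and 606.3. The ZR-75-30 cultures held 0, 3, 0 and 3 reads and were at or below the floor, so no fold is given against that line. HCC1500 exceeded MDA-MB-175 40.5-fold (adjusted p = 8.59e-10, limma). HCC1500 was thus the line with the highest level of both BCL2 and PMAIP1.

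BMF, BID (chr22:18216904-18257536) and BIK (chr22:43506756-43525718) were highest in MDA-MB-175. BMF at LG averaged 262.1 ± 23.2 there, against 117.5 ± 6.21 in HCC1500 and 54.57 ± 1.92 in ZR-75-30, and all 3 pairs of lines differed (adjusted p from 5.21e-13 to 1.46e-09, limma). BID, which caspase-8 cleaves to link death receptors to mitochondria, averaged 440.6 ± 29.9 in MDA-MB-175 against 174.8 ± 38.1 in ZR-75-30 and 163.2 ± 8.65 in HCC1500, and the latter lines did not pass the test against each other (adjusted p = 0.554). For that pair BID was called higher in ZR-75-30 with edgeR and DESeq2 (0.25 and 0.23, adjusted p = 0.024 and 0.0378) and lower with per-million scaling (-0.28, adjusted p = 0.0321). BIK, a BH3-only protein of the endoplasmic reticulum, averaged 72.95 ± 9.55, 43.64 ± 4.78 and 33.76 ± 2.99 in MDA-MB-175, then ZR-75-30, then HCC1500. The last pair (log2 difference 0.36, adjusted p = 0.0129) was not called with per-million scaling (0.01, adjusted p = 0.949) or in the fit of all 24 samples (adjusted p = 0.127). BCL2L11 (chr2:111876955-111926021), by contrast, was highest in HCC1500, at 298.4 ± 7.65 against 241.9 ± 9.13 in MDA-MB-175 and 122.0 ± 17.3 in ZR-75-30.

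The effector BAK1 (chr6:33540324-33548070) and the mitophagy receptor BNIP3L (chr8:26240570-26363152) lay within 1.5-fold between lines. BAK1 averaged 352.9 ± 33.7, 323.2 ± 9.61 and 270.5 ± 5.72 at LG in MDA-MB-175, then ZR-75-30, then HCC1500, and the first pair overlapped (adjusted p = 0.0726, limma), though it was called with per-million scaling (0.36, adjusted p = 1.41e-05) and sample weights (0.14, adjusted p = 0.0314). The ZR-75-30 and HCC1500 difference in BAK1, 0.26 (adjusted p = 0.000908), was -0.10 and not called with per-million scaling (adjusted p = 0.0853). BAK1 has the pseudogenes BAK1P1 and BAK1P2, so its counts are uncertain. BNIP3L, which marks mitochondria for autophagy, was 1.43-fold higher in MDA-MB-175 than in ZR-75-30 and 1.5-fold higher than in HCC1500 (adjusted p = 2.4e-09 and 4.22e-10), while the other two did not pass the test against each other (adjusted p = 0.0847). That pair was called under other settings in opposite directions, at 0.21, 0.24 and 0.21 with median-of-ratios scaling, edgeR and DESeq2 (adjusted p = 6.95e-05, 2.9e-05 and 2.52e-05) and at -0.29 with per-million scaling (adjusted p = 3.34e-06).

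In all, 9 of the 10 genes differed between MDA-MB-175 and ZR-75-30, 10 between MDA-MB-175 and HCC1500, and 7 between ZR-75-30 and HCC1500. Over all genes tested, 73.1%, 80.6% and 80.4% were called in these comparisons. The 3 comparisons share samples.

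The second question was which of the genes changed with glucose. BMF, a BH3-only gene whose protein is released from the cytoskeleton on loss of attachment, was the one member called in the same direction in all 3 lines, and 1.81% of the 14636 genes tested in every line were called higher in all 3, or 3.73% with HG replicate 3 of HCC1500 left out. Its upstream sequence is shown with those of PMAIP1, which rose in MDA-MB-175 and HCC1500, and BCL2L11, which rose in HCC1500 when HG replicate 3 was left out. Each is the stretch of 250 bases before the RefSeq gene start (GRCh38.p14), 5′ to 3′ on the gene's strand: BMF chr15:40108880-40109129 (minus strand, the most upstream of its start sites in the table), PMAIP1 chr18:59899746-59899995 (plus strand) and BCL2L11 chr2:111120664-111120913 (plus strand). Capitals mark matches on either strand to the GC box GGGCGG, the E-box CACGTG and the forkhead core GTAAACA.
BMF: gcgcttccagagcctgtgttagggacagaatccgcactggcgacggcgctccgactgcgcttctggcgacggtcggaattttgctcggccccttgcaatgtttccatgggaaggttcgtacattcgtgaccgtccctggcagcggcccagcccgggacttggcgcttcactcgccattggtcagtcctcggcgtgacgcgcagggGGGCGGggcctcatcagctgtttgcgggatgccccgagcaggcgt
PMAIP1: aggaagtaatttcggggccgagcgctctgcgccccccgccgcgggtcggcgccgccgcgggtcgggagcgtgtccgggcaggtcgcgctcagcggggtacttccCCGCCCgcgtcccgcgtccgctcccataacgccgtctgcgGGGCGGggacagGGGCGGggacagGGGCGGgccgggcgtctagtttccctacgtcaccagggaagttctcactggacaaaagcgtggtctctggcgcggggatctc
BCL2L11: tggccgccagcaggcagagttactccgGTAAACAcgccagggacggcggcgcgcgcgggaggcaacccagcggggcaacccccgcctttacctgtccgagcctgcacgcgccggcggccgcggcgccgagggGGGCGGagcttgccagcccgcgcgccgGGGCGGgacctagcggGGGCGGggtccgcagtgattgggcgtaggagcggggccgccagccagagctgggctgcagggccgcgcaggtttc
These windows held 1 GC box (BMF), 4 GC boxes (PMAIP1), and 3 GC boxes with 1 forkhead core 223 bases before the start (BCL2L11). Among the windows not shown, the other BMF window (chr15:40106967-40107216) and those of BCL2 and BCL2L1 held no match. The BAK1 window and most BID windows held GC boxes, and some BID windows held an E-box. Of all 35116 windows of the same length, 42.6% held a GC box, 6.34% an E-box and 2.98% a forkhead core. A match describes the letters and shows no binding.

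In MDA-MB-175, BMF (chr15:40380091-40401093, minus strand) had values of 287.7, 260.0, 268.7 and 232.0 at LG and 651.1, 675.9, 632.0 and 629.3 at HG. Every HG culture lay above every LG culture. The rise was 1.3 on the log2 scale (SE 0.06, 2.47-fold, adjusted p = 2.9e-10, limma). In ZR-75-30 it was 57.1, 54.6, 52.4 and 54.2 at LG and 153.6, 157.3, 166.6 and 138.4 at HG, again without overlap, and the rise was 1.48 (SE 0.09, 2.82-fold, adjusted p = 2.13e-10).

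In HCC1500 the change of BMF was smaller. Its values were 110.2, 119.4, 115.4 and 124.9 at LG and 160.5, 141.8, 184.2 and 149.6 at HG, without overlap. The rise was 0.43 (SE 0.11, adjusted p = 0.0233), and without HG replicate 3 it was 0.36 (SE 0.07, adjusted p = 0.000304). With HG replicate 3 kept, leaving out LG replicate 1, 2, 3 or 4 or HG replicate 1 took the adjusted p to between 0.0519 and 0.0786. The glucose change of BMF differed between lines (F test of the interaction over all 24 samples, limma, adjusted p = 4.92e-07). HCC1500 was below MDA-MB-175 by 0.88 (SE 0.11, adjusted p = 7.58e-06) and below ZR-75-30 by 1.05 (SE 0.11, adjusted p = 4.31e-07). Without HG replicate 3 these contrasts were -0.95 and -1.12 (adjusted p = 3.92e-08 and 1.74e-09). BMF shares 461 exon bases with the antisense gene BMF-AS1.

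PMAIP1 rose in MDA-MB-175 and HCC1500. In MDA-MB-175 its HG values were 35.8, 27.3, 35.1 and 34.2, above all LG cultures, a rise of 1.07 (SE 0.17, 2.17-fold, adjusted p = 0.000192, limma). In HCC1500 the HG values were 985.8, 974.6, 1024.0 and 952.3, also above all LG cultures, a rise of 0.67 (SE 0.07, 1.59-fold, adjusted p = 0.000322), and without HG replicate 3 the rise was 0.65 (SE 0.03, adjusted p = 1.17e-11). In ZR-75-30 the HG cultures held 0, 2, 2 and 2 reads, at or below the floor as at LG, and no change can be read. The test of a difference between lines in the change of PMAIP1 (adjusted p = 0.186, or 0.132 without HG replicate 3) includes this line at the floor. It passed with a pseudocount of 5 (adjusted p = 0.000653) and with the replicate block (0.0321), and nothing is read from it.

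MCL1 rose in ZR-75-30 and HCC1500. In ZR-75-30 its values were 2427.0, 2316.2, 2380.0 and 2458.3 at LG and 2949.1, 2990.6, 3048.0 and 3082.7 at HG, with all HG cultures above, a rise of 0.33 (SE 0.03, 1.26-fold, adjusted p = 2.2e-07, limma). In HCC1500 they were 1229.5, 1228.6, 1193.0 and 1240.2 at LG and 1420.0, 1440.8, 1424.2 and 1436.5 at HG, without overlap. The HCC1500 rise was 0.23 (SE 0.06, adjusted p = 0.0355), and 0.23 (SE 0.03, adjusted p = 1.37e-06) without HG replicate 3. Leaving out any other HCC1500 culture took the adjusted p to between 0.0774 and 0.117, and the rise was not called with per-million scaling (0.15, adjusted p = 0.329), median-of-ratios scaling (0.28, adjusted p = 0.0502) or edgeR (0.27, adjusted p = 0.0679). HG replicate 3 itself had an MCL1 value within the range of its group.

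In MDA-MB-175 MCL1 averaged 2671 ± 136 at LG and 2738 ± 31.1 at HG (log2 difference 0.04, SE 0.04, adjusted p = 0.562). The change of MCL1 differed between lines (F test, adjusted p = 0.00129), with ZR-75-30 exceeding MDA-MB-175 by 0.30 (SE 0.06, adjusted p = 0.0013) and HCC1500 exceeding it by 0.19 (SE 0.06, adjusted p = 0.0247). The F test gave 1.25e-05 without HG replicate 3 and missed the threshold with per-million scaling (adjusted p = 0.0856).

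BCL2 fell in ZR-75-30. Its HG values there were 85.4, 91.8, 84.6 and 88.4, below every LG culture, and the fall was -0.55 on the log2 scale (SE 0.08, adjusted p = 1.82e-05, limma), a mean 32.2% lower. In MDA-MB-175 the HG values of 4.2, 2.3, 4.7 and 3.2 overlapped with LG (log2 difference -0.64, SE 0.29, adjusted p = 0.118), and the difference was called in the fit of all 24 samples (adjusted p = 0.00992). These values rest on 10, 9, 12 and 15 reads at LG and 10, 4, 12 and 6 at HG, so this difference is uncertain. In HCC1500 the HG values were 3080.1, 3095.4, 2017.5 and 3001.2. HG replicate 3 was the low value, and the log2 difference was -0.14 (SE 0.14, adjusted p = 0.542) with it and 0.01 (SE 0.02, adjusted p = 0.708) without it. The difference between lines in the change of BCL2 had an adjusted p of 0.187 with all samples and 0.0181 without HG replicate 3.

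BIK fell in MDA-MB-175. It was 77.0, 82.4, 72.3 and 60.0 at LG and 43.7, 43.2, 42.2 and 54.7 at HG, without overlap (log2 difference -0.65, SE 0.12, adjusted p = 0.000958, limma). In HCC1500 it was 33.8, 37.8, 30.7 and 32.7 at LG and 23, 18.4, 44.6 and 14.8 at HG, and only HG replicate 3 lay above the LG cultures. The log2 difference there was -0.53 (SE 0.30, adjusted p = 0.263), and -0.83 (SE 0.17, adjusted p = 0.000317) without that culture. In ZR-75-30 the difference was 0.18 (SE 0.13, adjusted p = 0.28). The F test between lines for BIK had an adjusted p of 0.0658 with all samples and 0.000185 without HG replicate 3, and passed with both other scalings, edgeR and DESeq2 (0.00349 to 0.0317).

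In HCC1500 BCL2L11 depended on 1 culture. There it was 297.2, 297.3, 290.3 and 308.8 at LG and 384.6, 412.9, 158.2 and 410.8 at HG. All HG cultures but replicate 3 lay above LG, and the log2 difference was 0.10 (SE 0.29, adjusted p = 0.856, limma) with it and 0.43 (SE 0.04, adjusted p = 1.52e-07) without it. In MDA-MB-175 the values of 230.7, 251.3, 247.1 and 238.6 at LG and 189.3, 224.9, 195.6 and 232.9 at HG overlapped, and the fall of 0.20 (log2 difference -0.20, SE 0.07, adjusted p = 0.0467) was not called with no filter, under median-of-ratios scaling, with edgeR or DESeq2, or without LG replicate 2 or 3 or HG replicate 1 or 3 (adjusted p from 0.0529 to 0.145), nor in a fit of all 24 samples (0.631). In ZR-75-30 the log2 difference was 0.20 (SE 0.10, adjusted p = 0.106), and it was called without LG replicate 4 (0.28, adjusted p = 0.0249). The F test between lines had an adjusted p of 0.504 with all 24 samples and 0.000355 without HG replicate 3 of HCC1500. BCL2L11 shares 727 exon bases with MIR4435-2HG on the opposite strand.

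BID rose in ZR-75-30 by 0.31 (SE 0.11, adjusted p = 0.0207, limma), from 171.2, 163.8, 136.7 and 227.5 at LG to 217.7, 210.6, 222.3 and 205.6 at HG. LG replicate 4 lay above all HG cultures, and without LG replicate 2 or 3 the adjusted p was 0.0531 and 0.0872. In HCC1500 HG replicate 3 had 279.2 against 131.0 to 149.2 in the rest of its group, and the log2 difference was 0.04 (adjusted p = 0.932) with it and -0.21 (SE 0.07, adjusted p = 0.0128) without it. In MDA-MB-175 it was -0.06 (adjusted p = 0.494). For BID the F test between lines had an adjusted p of 0.423 with all samples and 0.00746 without HG replicate 3 of HCC1500.

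BCL2L1, BAK1 and BNIP3L were not called in any line with all cultures. The BCL2L1 log2 change was 0.03 for MDA-MB-175, -0.07 for ZR-75-30 and 0.03 for HCC1500 (adjusted p = 0.681, 0.256 and 0.918, limma). Without HG replicate 3, whose value of 1427.9 lay above the 951.2 to 974.6 of its group, BCL2L1 was lower at HG in HCC1500 by -0.11 on the log2 scale (SE 0.03, adjusted p = 0.00787), which is no more than the median change of all genes in that fit, -0.124. In ZR-75-30 it was called with per-million scaling (-0.10, adjusted p = 0.0438). BAK1 changed by -0.09, -0.10 and 0.27, and by 0.06 (adjusted p = 0.308) in HCC1500 without HG replicate 3, which had 499.7 against 264.2 to 305.0. With the exon length trend removed, the HCC1500 change of BAK1 was called (0.26, adjusted p = 0.0234). BNIP3L changed by -0.02, -0.01 and 0.01 with SE of 0.04, 0.05 and 0.08, and by -0.02 in HCC1500 without HG replicate 3.

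**Figure D3:**
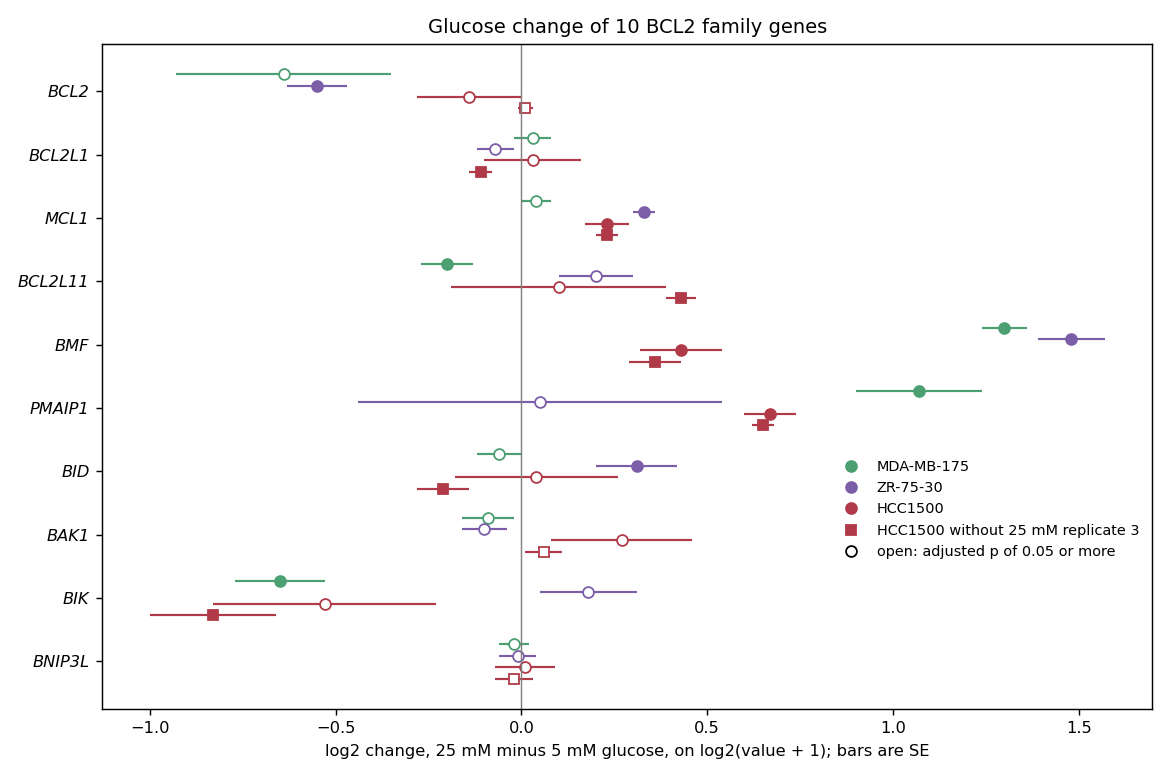
Log2 change from 5 mM to 25 mM glucose (points; bars SE) of the 10 genes in each line, filled where the limma adjusted p was under 0.05; squares are HCC1500 without HG replicate 3. BMF lies to the right in every line (1.3, 1.48 and 0.43), and BNIP3L lies near 0 in all.

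In MDA-MB-175, 4 of the 10 genes were called (25.7% of all genes tested there), in ZR-75-30 also 4 (46.0%), and in HCC1500 3 (20.5%), or 7 without HG replicate 3 (58.5%). With 10 genes, nothing particular to the family is read from these shares. The median log2 change of the 10 genes was -0.04, 0.11 and 0.07. In HCC1500 the median change of all genes was -0.064 as deposited, -0.134 with per-million scaling and -0.124 without HG replicate 3. Between lines, 2 of the 10 genes differed in their change (29.3% of all genes), MCL1 and BMF, and 6 did so without HG replicate 3 (48.6%).

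Genes acting around the family were examined as 7 lists. Of all tested genes, 46.0% were called for ZR-75-30, 25.7% for MDA-MB-175 and 20.5% for HCC1500 (58.5% without HG replicate 3). These shares count both directions, and separate shares for higher and lower genes are not given here. The lists were not tested against them, so no change of a list as a whole is read from its counts. Of the other BCL2 family genes and genes of BCL2-interacting proteins, 10 were tested in MDA-MB-175 (3 called higher, 2 lower), 11 in ZR-75-30 (5 and 2) and 10 in HCC1500 (2 and 0, or 3 and 3 without HG replicate 3). BBC3, which encodes the BH3-only protein PUMA, rose by 1.15 (SE 0.16, adjusted p = 6.72e-05, limma) in MDA-MB-175 and 0.90 (SE 0.13, adjusted p = 9.89e-06) in ZR-75-30, and in HCC1500 its change of 0.91 was not called (adjusted p = 0.0641) until HG replicate 3 was left out (0.59, adjusted p = 0.00126). BNIP2 encodes a BCL2-interacting protein and is not a family member by homology. It rose in every line, by 0.40, 0.67 and 0.68 (adjusted p = 1.45e-05, 1.92e-08 and 0.000862), and by 0.73 in HCC1500 without HG replicate 3. HRK, another BH3-only gene, rose in HCC1500 by 1.23 (adjusted p = 0.0238), or 1.16 without HG replicate 3 (adjusted p = 0.00453), from a low level of 4.31 ± 2.1 at LG. BCL2L14 rose in ZR-75-30 by 2.29 (adjusted p = 2.42e-05) and in MDA-MB-175 by 0.66 (adjusted p = 0.046). In ZR-75-30 it averaged 1.94 ± 1.28 at LG, about the floor, and 13.1 ± 4.47 at HG, so the size of that change is uncertain. In MDA-MB-175 it averaged 6.37 ± 1.13 at LG and 10.7 ± 1.94 at HG. The effector BAX was not called in any line.

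Of the death receptor genes, 10 were tested in each line, with 3 higher and 0 lower in MDA-MB-175, 3 higher and 2 lower in ZR-75-30, and 4 higher with 1 lower in HCC1500 (6 and 4 without HG replicate 3). TNFRSF10B, encoding the TRAIL receptor DR5, rose in all lines, by 0.59 (SE 0.05), 0.66 (SE 0.06) and 1.04 (SE 0.09; adjusted p = 8.21e-08, 2.84e-08 and 0.000134, limma). FAS rose in ZR-75-30 and HCC1500, by 1.10 and 0.90 (adjusted p = 0.00215 and 0.0106), and TNFRSF10A, the gene of the related receptor DR4, rose in MDA-MB-175 and HCC1500, by 0.41 and 0.52 (adjusted p = 0.00436 and 0.0112). Without HG replicate 3 the HCC1500 changes of TNFRSF10B, FAS and TNFRSF10A were 1.10, 0.85 and 0.60 (adjusted p = 1.13e-13, 0.00316 and 1.54e-06).

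Among the inhibitors of apoptosis, 6 genes were tested in each line, with 1 higher and 1 lower in MDA-MB-175, 1 higher with 3 lower in ZR-75-30, and 1 of each in HCC1500 (3 and 1 without HG replicate 3). BIRC3, a target of NF-κB, rose in all lines, by 1.23, 1.37 and 1.55 (adjusted p = 0.00402, 0.00319 and 0.00128, limma), from low levels of 3.65 ± 1.13, 1.03 ± 0.481 and 7.79 ± 1.68 at LG. In ZR-75-30 the LG mean was below the floor of 3 reads, which was 1.66 to 2.29 in those libraries. The HG mean there was 4.28 ± 1.31, so the size of that change is uncertain. BIRC5, which encodes survivin and is known as a gene of dividing cells, fell in all lines, with log2 changes of -0.57, -1.06 and -1.51 (adjusted p = 5.7e-07, 1.63e-09 and 0.00151). Without HG replicate 3 the HCC1500 changes of BIRC3 and BIRC5 were 1.61 and -1.75 (adjusted p = 5.55e-06 and 5.47e-15).

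The apoptosome and caspase list had 15 genes tested in MDA-MB-175 (1 higher, 2 lower), 14 in ZR-75-30 (2 and 4) and 15 in HCC1500 (0 and 2, or 1 and 7 without HG replicate 3). CASP6 and CASP2 fell in ZR-75-30 (-0.32 and -0.38; adjusted p = 0.000914 and 0.000138, limma) and in HCC1500 (-0.61 and -0.45; adjusted p = 0.0106 and 0.0217), and APAF1, the scaffold of the apoptosome, fell in ZR-75-30 (-0.40, adjusted p = 0.000325). Without HG replicate 3 the HCC1500 changes of CASP6 and CASP2 were -0.71 and -0.35 (adjusted p = 3.98e-07 and 2.26e-06). APAF1 in HCC1500 was -0.58 (adjusted p = 0.212) with that culture and -0.23 (adjusted p = 0.000408) without it, and DFFB, a nuclease subunit, was -0.29 (adjusted p = 0.25) with it and -0.41 (adjusted p = 0.023) without it.

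Of the 11 transcription factor genes tested in MDA-MB-175 and ZR-75-30, 5 were higher and 5 lower in the former and 4 and 4 in the latter, and of 10 tested in HCC1500, 2 were higher and 1 lower (4 and 4 without HG replicate 3). DDIT3, encoding the stress factor CHOP, rose by 1.11, 1.19 and 1.04 in MDA-MB-175, then ZR-75-30, then HCC1500 (adjusted p = 4.74e-07, 1.45e-09 and 0.0289, limma), and by 0.72 in HCC1500 without HG replicate 3. FOXO1 rose in MDA-MB-175 by 0.65 and in ZR-75-30 by 0.36 (adjusted p = 7.79e-05 and 0.00286). TP73 fell in all lines, with log2 changes of -0.45, -1.48 and -0.70 (adjusted p = 0.026, 5.51e-05 and 0.0112), and MYC rose in HCC1500 by 0.81 (adjusted p = 0.00911). Without HG replicate 3 the HCC1500 changes of TP73 and MYC were -0.80 and 0.64 (adjusted p = 2.67e-06 and 3e-09). E2F1 fell in MDA-MB-175 and ZR-75-30, with log2 changes of -0.21 and -1.17 (adjusted p = 0.0286 and 1.63e-10), and in HCC1500 it was -0.67 (adjusted p = 0.095), or -0.96 (adjusted p = 1.66e-11) without HG replicate 3. Regulators of MCL1 and BIM protein stability had 8 genes tested in each line, with 0 higher and 1 lower in MDA-MB-175, 1 higher with 3 lower in ZR-75-30, and 0 higher with 1 lower in HCC1500 (1 and 2 without HG replicate 3). GSK3B fell in ZR-75-30 (-0.31, adjusted p = 4.44e-06), and FBXW7 fell in HCC1500 (-0.31, adjusted p = 0.0314, or -0.25, adjusted p = 5.32e-05, without HG replicate 3). MAPK3 in HCC1500 was -0.34 (adjusted p = 0.354) with HG replicate 3 and -0.61 (adjusted p = 2.57e-09) without it.

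The outer membrane and mitophagy list had 9 genes tested in MDA-MB-175 (2 higher, 3 lower), 9 in ZR-75-30 (3 and 2) and 8 in HCC1500 (0 and 0, or 1 and 6 without HG replicate 3). PINK1, the kinase that marks damaged mitochondria, rose in MDA-MB-175 and ZR-75-30 by 0.58 and 0.54 (adjusted p = 2.31e-05 and 3.11e-06, limma), and PARK2, encoding its partner Parkin, rose in MDA-MB-175 by 0.58 (adjusted p = 0.00267). VDAC3, a channel of the outer membrane, fell in MDA-MB-175 (-0.33, adjusted p = 0.000263) and ZR-75-30 (-0.45, adjusted p = 1.93e-08). In HCC1500 its change was -0.45 (adjusted p = 0.122), or -0.66 (adjusted p = 2.65e-11) without HG replicate 3. There PHB2, a mitophagy receptor, was -0.10 (adjusted p = 0.82) with that culture and -0.39 (adjusted p = 1.42e-06) without it, and PINK1 was 0.45 (adjusted p = 0.182) with it and 0.21 (adjusted p = 0.00123) without it.

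**Figure D4:**
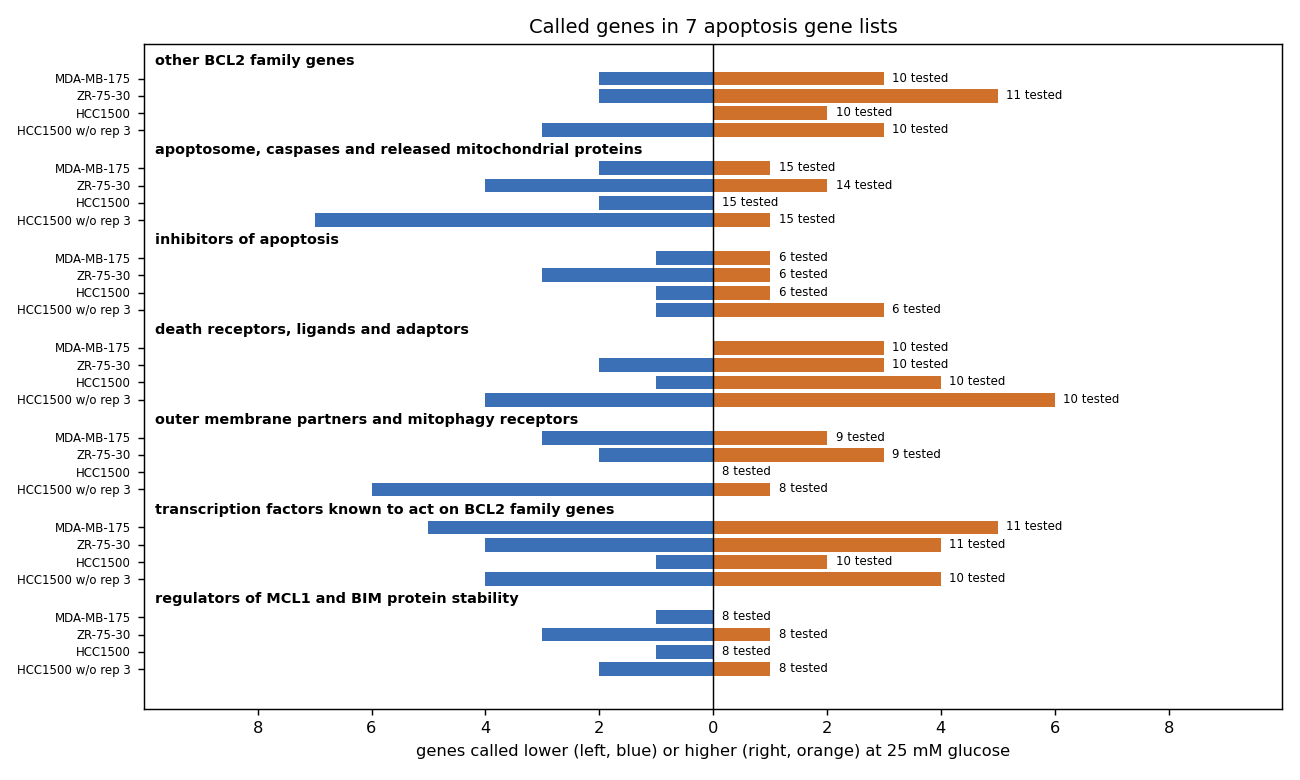
Number of genes called lower (left) or higher (right) at 25 mM glucose in each of the 7 lists, by line, with the number tested beside each bar. Leaving out HG replicate 3 of HCC1500 raised the counts, for example from 0 to 7 genes in the outer membrane and mitophagy list. The share of all tested genes called in HCC1500 rose as well, from 20.5% to 58.5%.

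Over the 23 cultures without HG replicate 3 of HCC1500, the gene most alike to each of the 10 by Pearson correlation was SSBP3 for BCL2 (r = 0.997), WSCD1 for BCL2L1 (0.996), NCKAP1 for MCL1 (0.993), MSN for PMAIP1 (0.991) and RP11-259K21.3 for BNIP3L (0.988). It was SMARCD3 for BID (0.987), ZNF430 for BCL2L11 (0.980), ZNFX1 for BMF (0.964), TLN2 for BIK (0.951) and TOMM22 for BAK1 (0.893). Of 13279 genes compared, 249, 368, 394, 441 and 310 had r over 0.95 with BCL2, BCL2L1, MCL1, PMAIP1 and BNIP3L. For BID, BCL2L11, BMF, BIK and BAK1 the numbers were 130, 88, 7, 1 and 0. For most of the 10 the named gene was thus 1 of many with a high r. These are descriptions over cultures that share a line, and r has no test here.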

How the data were processed

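RNA from 24 cultures was sequenced on an Illumina HiSeq. Per the study's methods, the authors used Trimmomatic for trimming, TopHat with hg19 and Ensembl genes for alignment, and DESeq2 and edgeR downstream, whereas the submitters' processing notes name edgeR and hg38. Which build made the table is not resolved here. The deposited signal is normalised by a factor that is the same for all genes of a sample, and dividing it out returned whole reads (100.0% of values within 0.01 reads). These values are not counts, so the main test was run on a log scale. The sources used here do not say whether cultures of a group were set up independently, so p-values measure only the spread between these samples.

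Groups came from the sample labels. Differences were tested with limma 3.58.1 (R 4.3.3, intensity trend) on log2(value + 1) for genes that reached 0.5 in 4 or more fitted samples, with Benjamini-Hochberg adjustment over all tested genes and calls at an adjusted p under 0.05. Log2 changes on this scale understate the change of low genes, and folds are ratios of mean values. Each line was fitted on its 8 samples, line differences on the 12 LG samples, and differences in change on all 24. The alternatives were pseudocounts of 0.5 and 5, no filter, median-of-ratios and per-million scaling, edgeR 4.0.16 and DESeq2 1.42.0 on recovered reads, sample weights, the replicate block, 1 fit of all samples, removal of an exon length trend, and leaving out each culture. The MDA-MB-175 glucose fit, the fit of MDA-MB-175 against ZR-75-30 and the interaction fit were also run on simulated counts, with the outcome not reported here. The simulated counts had the same dispersion for all genes and no culture that stood apart. They therefore do not bear on the HCC1500 glucose results. On the recovered reads, edgeR called 4402 of 17029 genes in MDA-MB-175, 7397 of 15834 in ZR-75-30 and 3576 of 16361 in HCC1500.

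Coordinates of genes are GRCh37 from GENCODE release 44 mapped to that build, which matched 18183 gene IDs (96.3%). Promoter windows are RefSeq's on GRCh38.p14, and 7 of the 10 genes had one. The named genes were all 10 members, from each list the 2 with the largest called change without overlap in each line, TXNIP, and the most alike gene. Some genes this rule names are not reported here. Members and lists were chosen with earlier results of these data known.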

Additional observations from a re-analysis of the deposited data

Results flagged for a closer look

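Among 60 groups of 4 cultures examined for the 10 genes, 9 had a highest or lowest culture whose gap to the nearest other was a larger part of the group's range than Dixon's 95% critical value for 4 samples, and chance gives about 1 in 20 such groups. HG replicate 3 of HCC1500 accounted for 4 of them, with a gap of 0.913 of the range for BCL2 (2017.5 against 3001.2 to 3095.4), 0.951 for BCL2L1 (1427.9 against 951.2 to 974.6), 0.889 for BCL2L11 (158.2 against 384.6 to 412.9) and 0.877 for BID (279.2 against 131.0 to 149.2).

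The other 5 were in other cultures. In HCC1500 at LG, replicate 3 was low for BCL2 (2997.6 against 3042.5 to 3050.9, gap 0.843) and replicate 2 was high for BCL2L1 (1109.2 against 1018.4 to 1033.0, gap 0.839). BIK was high in HG replicate 4 of MDA-MB-175 (54.7 against 42.2 to 43.7, gap 0.878) and in HG replicate 1 of ZR-75-30 (55.7 against 46.6 to 47.9, gap 0.855). BNIP3L was high in HG replicate 2 of MDA-MB-175 (639.6 against 609.8 to 614.1, gap 0.856).

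The change with glucose differed between lines for MCL1 (F test of the interaction, limma, adjusted p = 0.00129, or 0.0856 with per-million scaling) and BMF (adjusted p = 4.92e-07).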

How the results depend on the processing

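The number of genes called in HCC1500, 3 of 10, was 7 with sample weights, 5 with the exon length trend removed and 1 with the replicate block, and ran from 1 to 7 when 1 culture was left out, with 7 reached without HG replicate 3. The number whose change differed between lines, 2, was 4 with median-of-ratios scaling, edgeR or DESeq2, and 6 with sample weights or without HG replicate 3 of HCC1500. Leaving out that culture also raised the share of all tested genes called, from 20.5% to 58.5% in HCC1500 and from 29.3% to 48.6% between lines. For the other settings behind these counts the share of all genes is not given here. Nothing about the family is read from these counts. In the fit of all 24 samples, PMAIP1 in HCC1500 and BID in ZR-75-30 were not called (adjusted p = 0.103 and 0.168, limma), and neither was the LG difference of BCL2L11 between MDA-MB-175 and HCC1500 (0.173) or those of BAK1 and BIK between ZR-75-30 and HCC1500 (0.0814 and 0.127). In that fit the lower BCL2 value at HG in MDA-MB-175 was called (0.00992), but it rests on 4 to 15 reads per culture. The change between lines was called for BAK1 with median-of-ratios scaling, edgeR and DESeq2 (0.038, 0.0307 and 0.0142). With the replicate block, MCL1 and BMF in HCC1500 were not called (adjusted p = 0.15 and 0.0885). Same-numbered cultures of a line correlated between -0.04 and 0.11 in their deviations, so the numbers were not taken to pair samples.

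Changes of sign were as follows, on the log2 scale. Between ZR-75-30 and HCC1500 at LG, BCL2L1 was 0.14, 0.16 and 0.14 (median-of-ratios, edgeR, DESeq2), and BID, BAK1 and BNIP3L were -0.28, -0.10 and -0.29 with per-million scaling. In HCC1500, BCL2L1, BID and BNIP3L were -0.05, -0.04 and -0.07 with per-million scaling, BCL2, BCL2L1, BID and BNIP3L were 0.01, -0.11, -0.20 and -0.01 with sample weights, and BCL2 was 0.02 with the length trend removed. PMAIP1 in ZR-75-30, at the floor, was -0.01, -0.12 and -0.14 (pseudocount 5, edgeR, DESeq2). BNIP3L in MDA-MB-175 was 0.01 (median-of-ratios, edgeR, DESeq2), and its difference in change between HCC1500 and MDA-MB-175 was -0.03 with per-million scaling. The causes were not tested.

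With 1 culture left out, the ranges of values that changed sign were -0.01 to 0.06 for BCL2L1 (MDA-MB-175 high against low glucose), -0.21 to 0.36 for PMAIP1 (ZR-75-30 high against low glucose), -0.03 to 0.01 for BNIP3L (ZR-75-30 high against low glucose), -0.03 to 0.43 for BCL2L11 (HCC1500 high against low glucose), -0.02 to 0.05 for BNIP3L (HCC1500 high against low glucose), -0.19 to 0.01 for BCL2 (HCC1500 high against low glucose), -0.11 to 0.08 for BCL2L1 (HCC1500 high against low glucose), -0.21 to 0.15 for BID (HCC1500 high against low glucose), -0.02 to 0.02 for BCL2L1 (ZR-75-30 against HCC1500 at low glucose), -0.06 to 0.18 for BID (ZR-75-30 against HCC1500 at low glucose).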
